A study of Mus musculus with 4 samples.

Results

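Neutrophil genes are described here as 10 genes that mark neutrophils, S100a8, S100a9, Retnlg, Csf3r, Cxcr2, Mmp9, Il1r2, Clec4d, Hdc and Slfn4, in left ventricle of young and aged mice under sham conditions and after ischemia and reperfusion (I/R). They were chosen by symbol, with earlier results of these data known, and all 10 were found among the 32285 genes of the deposited tables. The data are 4 droplet libraries of left ventricle from male wild-type C57BL/6J mice, 1 library per condition, with no transgene, deletion or drug. The ages were 3 to 5 months (young) and 24 to 26 months (aged), each with a sham and an I/R library. I/R was 45 min of ischemia by surgery on the left anterior descending coronary artery (LAD) and 24 h of reperfusion. The titles name the other libraries as sham, while their treatment label describes healthy, unaltered mice, so whether they had an operation is not settled by the labels. The labels name nuclear RNA as the molecule where the methods describe dissociated cells, and neither says how many mice went into a library. The labels list cardiomyocytes, endothelial cells, fibroblasts and macrophages as the cell types, and neutrophils are not among them.

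Neutrophils are short-lived granulocytes that leave the bone marrow in response to G-CSF, follow CXC chemokines through their receptor CXCR2, and cross the vessel wall by way of selectins and β2 integrins. They are among the first leukocytes to enter reperfused heart muscle. Their granule proteins are made in a fixed order during maturation, so that transcripts of the earliest granules are absent from mature blood neutrophils while those of calprotectin, late granules and surface receptors remain.

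The libraries held between 91124 and 102883 barcodes and between 25836175 UMIs (unique molecular identifiers, each counting 1 captured RNA molecule) in young sham and 66767829 in aged I/R. Depth was low, with a median of 244 to 675 UMIs per barcode, and between 7.44% and 7.92% of the barcode sequences of a library also occurred in another library. UMIs were summed over all barcodes of a library and given as CPM, counts per 1000000 UMIs of that library. Where 4 values follow each other without names, they stand for sham and I/R of young hearts and then sham and I/R of aged hearts. Each condition is a single library, no test was run, and every interval below is a 95% interval that covers counting error only, not the spread between mice. In such sums, fewer cells of a type and less RNA per cell cannot be told apart.

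S100a8 and S100a9 encode the subunits of calprotectin, the most abundant protein of neutrophil cytosol. Both genes lie on chromosome 3 (GRCm38, GENCODE M21), S100a8 at 90668978 to 90670035 on the plus strand and S100a9 at 90692632 to 90695721 on the minus strand, with 22596 bases between them. S100a8 was at 3.64 CPM (94 UMIs) in young sham and 34.5 CPM (1368 UMIs) after young I/R, with 6.99 CPM (289 UMIs) in aged sham and 26.7 CPM (1781 UMIs) after aged I/R. Both I/R libraries were far above both sham libraries, by 9.48-fold (7.69 to 11.8) in young and 3.82-fold (3.37 to 4.34) in aged hearts. S100a9 was at 3.87, 29.7, 7.98 and 34.8 CPM, from 100, 1178, 330 and 2326 UMIs. Its ratio of I/R over sham was 7.67-fold (6.25 to 9.51) in young and 4.37-fold (3.89 to 4.91) in aged hearts. When scaled by total UMIs the order of the I/R libraries thus differed between the subunits, with S100a8 highest in young I/R and S100a9 highest in aged I/R. Together the pair made up 38.4%, 49.8%, 46.5% and 49.9% of the UMIs of the 10 genes.

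Retnlg and Mmp9 encode secreted proteins of neutrophils, resistin-like gamma and the gelatinase of tertiary granules. Retnlg (chromosome 16, 48872621 to 48874496, plus strand) was at 0.542 CPM (14 UMIs) in young sham and 4.49 CPM (178 UMIs) after young I/R, with 0.846 CPM (35 UMIs) in aged sham and 3.52 CPM (235 UMIs) after aged I/R. I/R was 8.28-fold (4.81 to 15.5) above sham in young and 4.16-fold (2.91 to 6.11) in aged hearts. The sham libraries of Retnlg did not differ beyond counting error, with an aged-over-young ratio of 1.56 (0.819 to 3.14). Mmp9 (chromosome 2, 164940780 to 164955850, plus strand) was at 0.542 CPM (14 UMIs), 5.67 CPM (225 UMIs), 1.43 CPM (59 UMIs) and 5.18 CPM (346 UMIs) in the same order. Its ratio of I/R over sham was 10.5-fold (6.11 to 19.5) in young and 3.63-fold (2.75 to 4.87) in aged hearts. Here the sham libraries did differ, with aged sham 2.63-fold (1.45 to 5.11) above young sham. When scaled by total UMIs the I/R libraries did not, at a ratio of 0.914 (0.770 to 1.09).

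**Figure D1:**
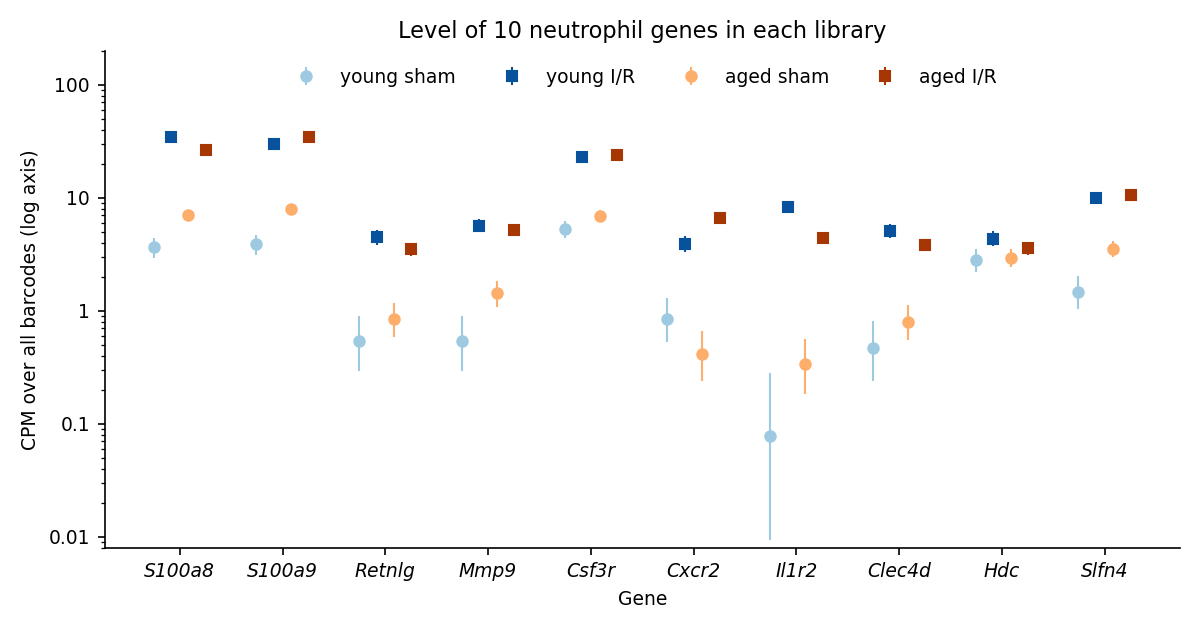
CPM of the 10 genes in the 4 libraries on a log axis, each point the UMI sum over all barcodes per 1000000 UMIs of the library, with its exact Poisson 95% interval. Both I/R libraries lie above both sham libraries for every gene, by the smallest margin for Hdc (2.83 and 2.93 CPM in sham against 4.36 and 3.58 CPM in I/R), and Il1r2 is lowest in young sham at 2 UMIs.

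The receptors among the genes moved in the same direction with sizes that differed widely. Csf3r, the receptor for G-CSF (chromosome 4, 126024550 to 126044440, plus strand), was at 5.26 CPM (136 UMIs) in young sham and 23.0 CPM (911 UMIs) after young I/R, with 6.96 CPM (288 UMIs) in aged sham and 24.1 CPM (1608 UMIs) after aged I/R. I/R was 4.36-fold (3.64 to 5.26) above sham in young and 3.46-fold (3.05 to 3.93) in aged hearts. When scaled by total UMIs the I/R libraries did not differ beyond counting error (aged over young 1.05, 0.966 to 1.14). Cxcr2, the receptor for CXC chemokines that guides neutrophils into tissue (chromosome 1, 74153989 to 74161246, plus strand), was at 0.852 CPM (22 UMIs), 3.91 CPM (155 UMIs), 0.411 CPM (17 UMIs) and 6.60 CPM (441 UMIs) in the same order. It was lowest in aged sham and highest in aged I/R, so that its ratio of I/R over sham was 4.59-fold (2.92 to 7.53) in young and 16.1-fold (9.92 to 27.8) in aged hearts.

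Il1r2, a decoy receptor that binds interleukin 1 without signalling, showed the largest ratio of the 10 genes in young hearts. It lies on chromosome 1 at 40074079 to 40125231 on the plus strand. There Il1r2 overlaps Gm37347 on the same strand and Gm16894 on the opposite strand. How reads in the shared stretches were counted was not checked. Il1r2 was at 0.0774 CPM (2 UMIs) in young sham and 8.24 CPM (327 UMIs) after young I/R, with 0.339 CPM (14 UMIs) in aged sham and 4.45 CPM (297 UMIs) after aged I/R. With 2 UMIs in young sham the ratio of 106-fold has a counting interval of 29.2 to 883, and 1 of the 15465 genes that entered this comparison had a larger ratio when a count of 0 was set to 3 UMIs. In aged hearts I/R was 13.1-fold (7.71 to 24.3) above sham. Clec4d, a C-type lectin receptor of myeloid cells (chromosome 6, 123262111 to 123275265, plus strand), was at 0.464 CPM (12 UMIs), 5.07 CPM (201 UMIs), 0.798 CPM (33 UMIs) and 3.85 CPM (257 UMIs). Its ratio was 10.9-fold (6.11 to 21.5) in young and 4.82-fold (3.35 to 7.16) in aged hearts.

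Slfn4, a Schlafen family gene of myeloid cells (chromosome 11, 83175186 to 83190216, plus strand), was at 1.47 CPM (38 UMIs) in young sham and 9.98 CPM (396 UMIs) after young I/R, with 3.53 CPM (146 UMIs) in aged sham and 10.5 CPM (702 UMIs) after aged I/R. I/R was 6.79-fold (4.86 to 9.73) above sham in young and 2.98-fold (2.49 to 3.58) in aged hearts. The Schlafen genes are close relatives, and how reads that match several of them were counted was not checked. Of the 6 other Schlafen genes listed, Slfn1 alone was at least 2-fold higher after I/R at either age, against 3.26% of all genes in young and 5.65% in aged hearts. In young hearts 3 of the 6 were at least 2-fold lower, against 27% of all genes. That count of 3 fell to 0 when the libraries were scaled by the median gene. By that scaling 1937 of 15465 genes were at least 2-fold lower. Slfn5, the Schlafen gene with the most UMIs, was at 137 CPM in young sham and 86.4 after young I/R, with 125 in aged sham and 118 after aged I/R. Slfn2, the next by UMIs, was at 15.7, 15.1, 20.5 and 20.2 CPM.

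Hdc stood apart from the other 9 genes. It encodes histidine decarboxylase, the enzyme that makes histamine, and is known in mast cells and basophils as well as in neutrophils (chromosome 2, 126593667 to 126619299, minus strand). Hdc was at 2.83 CPM (73 UMIs) in young sham and 4.36 CPM (173 UMIs) after young I/R, with 2.93 CPM (121 UMIs) in aged sham and 3.58 CPM (239 UMIs) after aged I/R. The ratio of I/R over sham was 1.54-fold (1.17 to 2.06) in young hearts and 1.22-fold (0.979 to 1.54) in aged hearts, where the interval includes 1. The 7 mast cell markers summed to 7.47, 3.93, 7.98 and 3.44 CPM, of which Kit, a receptor that other cells carry too, made up 5.30, 2.62, 3.99 and 2.28 CPM. At least 2-fold lower after I/R were 3 of the 4 that entered in young hearts, where 27% of all genes were, and 4 of 5 in aged hearts, where 3.02% were. By gene-wise median scaling the counts were 0 of 4 and 4 of 5. Of all genes, 1937 of 15465 were at least 2-fold lower in young and 618 of 16761 in aged hearts under that scaling. The 4 basophil markers had 6 to 10 UMIs in all per library. Barcodes of young sham with both Hdc and a mast cell marker are counted below. The part of these cells in the level of Hdc was not tested.

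Ratios were counted as called at 2-fold or more, over the genes with 20 or more UMIs in the sum of both libraries. In young hearts 9 of the 10 genes were at least 2-fold higher after I/R, where 3.26% of all genes that entered were, and in aged hearts 9 of 10 against 5.65%. At least 2-fold lower were 0 of 10 at both ages, against 27% of all genes in young and 3.02% in aged hearts. The 9 genes were the same at both ages, and Hdc was the exception. The 10 genes and the lists below were chosen with earlier results of these data known. Their counts beside those of all genes are thus a description. The median log2 ratio of the 10 genes was 2.99 in young and 1.99 in aged hearts, against -0.51 and 0.09 over all genes that entered. The summed level of the 10 genes was 19.5 CPM in young sham (505 UMIs) and 129 CPM after young I/R (5112 UMIs), with 32.2 CPM in aged sham (1332 UMIs) and 123 CPM after aged I/R (8232 UMIs). I/R was thus 6.59-fold (6.02 to 7.24) above sham in young and 3.83-fold (3.61 to 4.06) in aged hearts. Scaling by the median gene instead of the total adds 0.51 to each young log2 ratio and takes 0.09 from each aged one, which put Hdc at a log2 ratio of 1.14 in young hearts and so all 10 genes above 2-fold there. That scaling also changed the split of all genes in young hearts from 504 at least 2-fold higher and 4177 lower to 1199 and 1937.

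The ages were then compared within each condition. In sham hearts the sum was 1.65-fold (1.49 to 1.83) higher in aged than in young mice. Of the 9 genes with enough UMIs, 3 were at least 2-fold higher in aged sham (S100a9, Mmp9 and Slfn4; background 3.48%) and 1 was at least 2-fold lower (Cxcr2; background 7.21%). The call of Cxcr2 rests on 17 against 22 UMIs, and by gene-wise scaling it ended, at a log2 ratio of -0.91 (-1.91 to 0.07). S100a8 was just inside that limit at 1.92-fold (1.52 to 2.45), S100a9 just outside it at 2.06-fold (1.64 to 2.61), and Il1r2 did not enter with 16 UMIs. After I/R the sums differed by a ratio of 0.957 (0.924 to 0.991), and 0 of the 10 genes differed by 2-fold, where 21.3% of all genes were at least 2-fold higher in aged I/R and 1.58% lower. The genes nearest to the limit were Il1r2, 0.540-fold (0.460 to 0.633) in aged against young I/R, and Cxcr2, 1.69-fold (1.40 to 2.04).

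The comparisons between ages depend on the scaling. By the median gene, aged I/R was 0.47 log2 units above young I/R, so that relative to it the sum of the 10 genes was lower in aged I/R by a log2 ratio of -0.53, and S100a9, which was higher in aged I/R by total UMIs, was lower. Csf3r, Slfn4, Mmp9 and Hdc, whose intervals by total UMIs included a ratio of 1, were lower too. Among them Mmp9 was at a log2 ratio of -0.60 (-0.84 to -0.35) and Hdc at -0.75 (-1.04 to -0.46). The split of all genes then changed from 3512 at least 2-fold higher and 261 lower in aged I/R to 1588 and 833. In sham hearts the same scaling added 0.14 to each log2 ratio and changed the split from 553 and 1145 to 741 and 838.

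The difference between the ages in the I/R response was taken as the aged minus the young log2 ratio. For the sum it was -0.78 (-0.94 to -0.63). It was below 0 with its whole interval for 8 of the 10 genes, from -0.33 (-0.65 to -0.02) for Csf3r to -3.02 (-5.17 to -0.87) for Il1r2. S100a8 was at -1.31 (-1.66 to -0.96), S100a9 at -0.81 (-1.15 to -0.47), Mmp9 at -1.53 (-2.40 to -0.65) and Slfn4 at -1.19 (-1.73 to -0.64). Cxcr2 went the other way at 1.81 (0.86 to 2.76), and the interval of Hdc, -0.34 (-0.84 to 0.17), included 0. Under gene-wise scaling 9 of the 10 genes were below 0, again all but Cxcr2. The share of all genes below 0 was not counted under either scaling. The counts of 8 and 9 thus have no background, and whether they differ from genes in general was not tested. With no replicate libraries none of these differences has been set against the spread between mice.

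**Figure D2:**
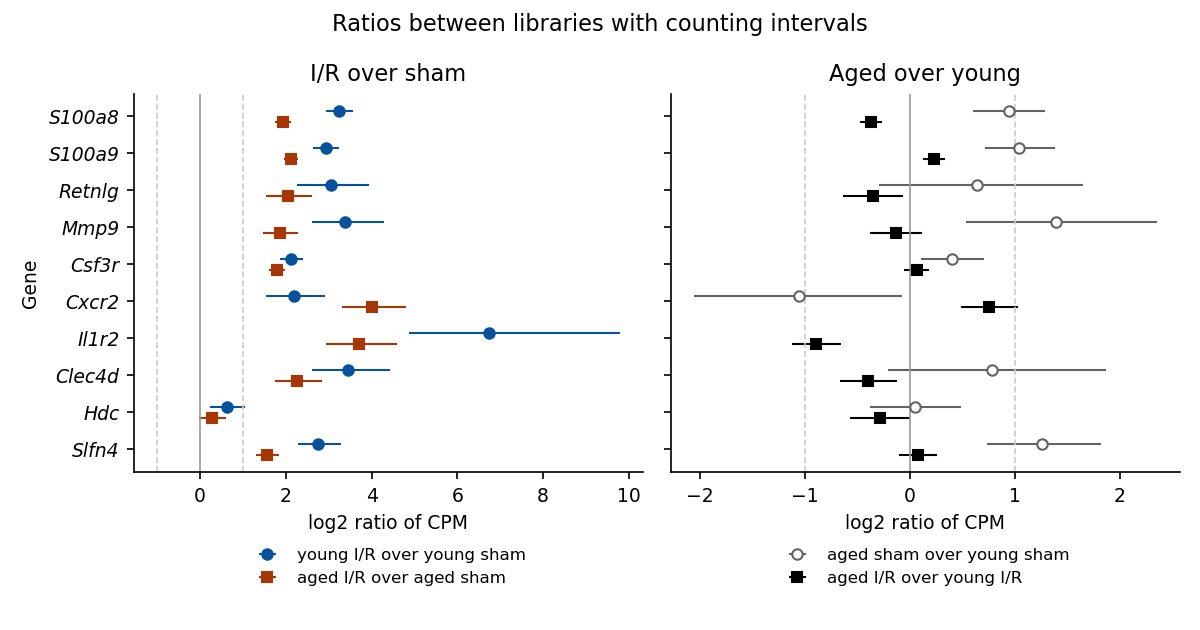
Log2 ratio of CPM of each gene with its exact 95% counting interval, I/R over sham in young (circles) and aged (squares) hearts on the left and aged over young in sham (open circles) and I/R (squares) on the right. Dashed lines mark 2-fold. On the left only Hdc lies inside 2-fold at either age, and Cxcr2 is the 1 gene with a larger ratio in aged (4.01) than in young hearts (2.20). Il1r2 is left out of the sham comparison on the right, where it had 16 UMIs.

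The factors that act on these receptors were measured in the same libraries, in a list of 18 ligands and partners. In young hearts 10 of the 17 that entered were at least 2-fold higher after I/R and 2 lower, and in aged hearts 9 of 16 and 0. Of all genes that entered, 3.26% were higher and 27% lower in young hearts, and 5.65% and 3.02% in aged hearts. Timp1, the inhibitor of MMP9, was at 3.41 CPM in young sham and 75.3 after young I/R, with 18.5 in aged sham and 45.9 after aged I/R. Cxcl5, a ligand of CXCR2, was at 0.503, 29.4, 1.55 and 14.0 CPM. Both were thus higher in young than in aged I/R, while Cxcr2 itself was higher in aged I/R. Il1r1, the signalling receptor that competes with the decoy Il1r2 for interleukin 1, was at 15.6, 20.5, 15.3 and 24.9 CPM, and Tlr4, a receptor for calprotectin, at 17.8, 18.1, 19.2 and 22.3 CPM, each within 2-fold after I/R. Further ligands, chosen after their values were seen, were Cxcl1 at 1.86, 10.2, 2.80 and 6.34 CPM, Il1b at 1.16, 5.17, 2.08 and 7.23 CPM, and Csf3, which encodes G-CSF, with 0, 23, 2 and 7 UMIs.

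Granule genes differed widely in level, from Ctsg with 0 UMIs in every library to Lcn2. The 5 genes of primary granules, which promyelocytes make in the marrow, summed to 6, 8, 12 and 25 UMIs in the 4 libraries, of which Prtn3 had 6, 4, 12 and 23, and Mpo, Elane and Ctsg had at most 1 UMI in any library. A count of 0, taken to allow 3 UMIs, leaves up to 0.116 CPM in young sham and 0.0449 CPM in aged I/R. Of the 9 secondary and tertiary granule genes 6 entered in young hearts, where 4 were at least 2-fold higher after I/R, and 6 in aged hearts, where 3 were. Of all genes that entered, 3.26% were in young and 5.65% in aged hearts. Secondary granule genes were not all above the primary ones: Camp had 1, 1, 4 and 8 UMIs, Ltf 1, 2, 4 and 11 and Ngp 1, 4, 1 and 8, all 3 named after their values were seen. Lcn2, lipocalin 2, which sequesters bacterial siderophores, had the most UMIs, at 1.51 CPM in young sham and 99.8 after young I/R, with 2.08 in aged sham and 72.6 after aged I/R. It made up 3960 of the 4944 UMIs of this list in young I/R and 4848 of 6511 in aged I/R. Which cells its RNA came from was not tested. Chil3, a chitinase-like protein of neutrophils and macrophages, was at 0.194, 13.8, 0.484 and 4.30 CPM. Cybb, the oxidase subunit of neutrophils and macrophages, was not higher after I/R, at 11.5, 6.86, 17.8 and 16.7 CPM, and Pglyrp1, a peptidoglycan recognition protein, was at 1.24, 1.46, 1.40 and 1.72 CPM.

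Other genes used to recognise neutrophils were present at low levels. Of 14 such genes 8 entered in young and 10 in aged hearts. At each age 5 were at least 2-fold higher after I/R, against 3.26% of all genes in young and 5.65% in aged hearts. Trem1, an amplifier of inflammatory signals, was at 0.0774 CPM (2 UMIs) in young sham and 1.76 CPM (70 UMIs) after young I/R, with 0.169 CPM (7 UMIs) in aged sham and 1.08 CPM (72 UMIs) after aged I/R. Fpr2, a formyl peptide receptor, was at 0.348, 1.34, 1.16 and 1.27 CPM, and Padi4, the enzyme that citrullinates histones, at 0.968, 0.857, 0.822 and 1.42 CPM. G0s2, a lipase inhibitor that fat and muscle cells also make, was at 38.7, 24.1, 27.2 and 20.9 CPM, lower after I/R at both ages, and by gene-wise scaling its young ratio kept that sign at a log2 value of -0.17. Ly6g, the surface antigen by which mouse neutrophils are sorted, had 0, 2, 1 and 7 UMIs, and is named after its values were seen.

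Genes of adhesion and extravasation were measured on the vessel and the leukocyte side. Of the 10 listed, 4 were at least 2-fold higher after I/R in young and 6 in aged hearts, against 3.26% and 5.65% of all genes. At least 2-fold lower were 0, against 27% of all genes in young and 3.02% in aged hearts. Itgam, the αM integrin of myeloid cells, was at 6.58 CPM in young sham and 17.4 after young I/R, with 6.79 in aged sham and 22.8 after aged I/R. Itgb2, its β2 partner, was at 4.03, 4.29, 4.33 and 9.29 CPM, at least 2-fold higher in aged hearts only. Icam1, the endothelial ligand of that integrin, was at 13.5, 16.0, 24.5 and 16.8 CPM, and Pecam1, a junction protein of endothelium, at 113, 98.3, 105 and 137 CPM.

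Monocytes and macrophages express several of the 10 genes too. The sum of macrophage markers was not higher after I/R: the 15 genes were at 393 CPM in young sham and 259 after young I/R, with 549 in aged sham and 507 after aged I/R. At least 2-fold higher were 0 of 15 in young and 2 of 15 in aged hearts, where 3.26% and 5.65% of all genes were. At least 2-fold lower were 3 and 1, where 27% and 3.02% were. The 1 lower in aged hearts was Cd74, at 170 CPM in sham and 71.7 after I/R. The 2 higher there were Lyve1, at 11.2 CPM in sham and 29.0 after I/R, and Cd163, at 9.19 and 20.7 CPM. The aged median log2 ratio of the list was 0.07. The 6 monocyte markers summed to 85.5, 131, 107 and 176 CPM. Of these sums Vcan made up 45.5, 63.4, 47.6 and 64.1 CPM and Fn1 24.3, 46.2, 33.6 and 76.8 CPM. At each age 1 of 6 was at least 2-fold higher after I/R, Ly6c2 in young and Fn1 in aged hearts. Ly6c2 was at 0.387 CPM in young sham and 1.08 after young I/R, with 1.18 in aged sham and 0.914 after aged I/R. In aged hearts 1 of 6, Plac8, was at least 2-fold lower (1.96 CPM in aged sham and 0.974 after aged I/R). By gene-wise scaling 3 of 6 were at least 2-fold higher in young hearts, where 1199 of 15465 genes were. The median log2 ratio of the 6 was then 1.06. Erythroid genes, a measure of retained blood, summed to 2567, 1957, 1691 and 1025 CPM, lower after I/R at both ages by total UMIs, with a young log2 ratio of -0.39 that became 0.12 by gene-wise scaling. Barcodes that held the 10 genes beside these markers are counted below. The part of these cells and of blood in the levels of the 10 genes was not tested.

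The genes were then followed into single barcodes. In young sham 0.528% of the barcodes (487 of 92200; exact binomial interval 0.482% to 0.577%) had a UMI of any of the 10 genes, in young I/R 4.77% (4906 of 102883; 4.64% to 4.90%), in aged sham 1.30% (1304 of 100342; 1.23% to 1.37%) and after aged I/R 8.42% (7675 of 91124; 8.24% to 8.60%). Since depth differed, each barcode was thinned to 200 UMIs by formula, leaving out shallower ones, which kept 66286, 98275, 95918 and 91124 barcodes. At equal depth the shares were 0.387%, 2.54%, 0.644% and 2.47%, so that the I/R libraries stood close to each other where their unthinned shares did not. In the 10% of barcodes richest in cardiomyocyte markers the thinned shares were 0.245%, 2.46%, 0.589% and 2.0%, against 0.404%, 2.55%, 0.649% and 2.52% in the other barcodes. They were near each other in young I/R and aged sham, and lower among the cardiomyocyte-rich barcodes in young sham and aged I/R. The thinned shares have no interval. Unthinned, the young sham shares were 0.466% (0.338% to 0.628%) in the rich and 0.535% (0.487% to 0.587%) in the other barcodes, with intervals that overlap. The median depth was 280, 355, 363 and 772 UMIs in the cardiomyocyte-rich barcodes and 244, 374, 391 and 675 in all. The cardiomyocyte-rich barcodes are not a set known to lack the genes. In young sham 100% of all barcodes held a cardiomyocyte marker. Their median share of marker UMIs was 5.83% in the lowest of 5 equal groups by that share and 11.8% in the highest. Rich and other barcodes both held the genes, so a UMI in a barcode is not read as expression by a cell.

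The level of the 10 genes was also read across the whole range of cardiomyocyte RNA, with barcodes ranked into 5 equal groups by their share of cardiomyocyte marker UMIs. Per 1000000 UMIs of other genes, young I/R had 138 (130 to 147) UMIs of the 10 genes in the lowest group and 137 (128 to 145) in the highest. Aged sham had 34.3 (30.2 to 38.8) and 36.3 (32.1 to 40.9), and young sham 23.6 (19.2 to 28.7) and 19.4 (15.8 to 23.6). In aged I/R the level was 154 (147 to 161) in the lowest group and 115 (110 to 121) in the highest, the largest difference of the 4 libraries. Markers of other cells were lower in the highest group too. In aged I/R macrophage markers were at 610 and 522 and endothelial markers at 1581 and 1401, and in young sham macrophage markers were at 553 and 332.

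**Figure D3:**
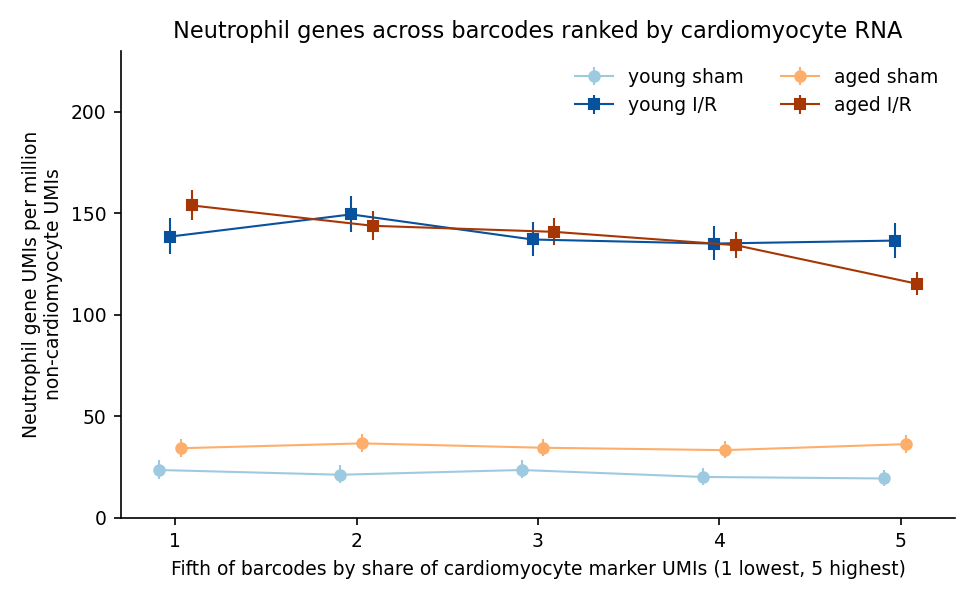
UMIs of the 10 genes per 1000000 UMIs other than cardiomyocyte markers, in 5 equal groups of the barcodes of each library ranked by their share of cardiomyocyte marker UMIs, with exact Poisson 95% intervals. The lines are nearly level in young I/R and aged sham. Young sham goes from 23.6 in the lowest group to 19.4 in the highest, with intervals that overlap, and aged I/R from 154 to 115.

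Most UMIs of the genes lay alone. Of the UMIs of the 10 genes, 93.7% in young sham and 92.4% after young I/R, with 95.9% in aged sham and 87.2% after aged I/R were the only such UMI in their barcode. For each of the 45 pairs of genes, barcodes with both were counted and set against the number expected from the shares of each gene within 20 bins of barcode depth. Over all pairs the count was 7 against 1.19 expected in young sham and a ratio of 5.90 (2.37 to 12.2), 151 against 113 after young I/R (1.34, 1.13 to 1.57), with 17 against 7.93 in aged sham (2.14, 1.25 to 3.43) and 432 against 322 after aged I/R (1.34, 1.22 to 1.47). The sum over pairs was thus above the number expected in every library, but a barcode with several of the genes enters it several times. In comparison, macrophage markers gave 1.75, 1.12, 1.16 and 1.14, endothelial markers 1.13, 1.03, 1.03 and 1.03, fibroblast markers 1.22, 1.06, 1.06 and 1.04, and erythroid genes 2.05, 1.36, 1.14 and 1.18. Monocyte markers gave 1.52, 1.29, 1.11 and 1.07, and B cell markers, with counts of only 2, 2, 9 and 8, gave 2.26, 50.4, 3.85 and 5.16. Secondary and tertiary granule genes gave 6.05, 1.09, 3.02 and 0.909, from counts of 2, 47, 6 and 91. The list of other neutrophil genes gave 2.17, 0.825, 2.80 and 1.52, from counts of 2, 3, 6 and 19. For these lists the intervals included 1 in young sham and in both I/R libraries, and lay above 1 in aged sham.

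**Figure D4:**
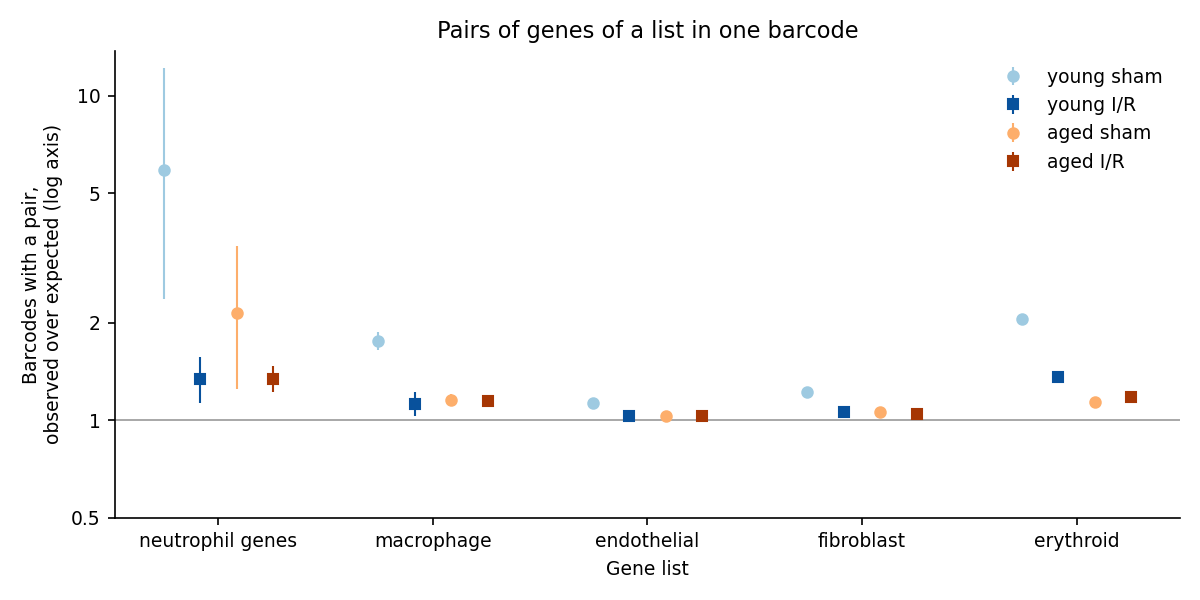
Barcodes that held a pair of genes of a list, observed over expected at equal depth on a log axis, for the 10 neutrophil genes and 4 marker lists in the 4 libraries, with exact Poisson 95% intervals of the observed number. A ratio of 1 is chance. The neutrophil genes lie at 1.34 in both I/R libraries, and at 5.90 and 2.14 with wide intervals in the sham libraries. In I/R the macrophage, endothelial and fibroblast lists lie lower, and the erythroid list lies at 1.36 in young and 1.18 in aged hearts. In young I/R the interval of the neutrophil genes (1.13 to 1.57) overlaps that of the macrophage list (1.03 to 1.22).

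Single pairs were thinly filled. The interval lay above 1 for 3 of 45 pairs in young sham and 2 after young I/R, with 2 in aged sham and 5 after aged I/R, and below 1 for 0. In aged I/R the pair with the most barcodes was S100a9 with Csf3r, in 65 barcodes against 42.8 expected (1.52, 1.17 to 1.94), and S100a8 with Csf3r was in 51 against 33.8 (1.51, 1.12 to 1.98). S100a8 with S100a9, whose proteins form 1 complex, was in 55 against 47.5 (1.16, 0.872 to 1.51) in aged I/R and in 15 against 16.8 (0.895, 0.501 to 1.48) in young I/R. The calprotectin pair was thus not above chance in either I/R library beyond counting error. Without S100a8 and S100a9 the ratio over the remaining 28 pairs was 1.5 (1.08 to 2.03) in young I/R and 1.49 (1.24 to 1.79) in aged I/R.

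Barcodes with at least 2 different genes of the 10 numbered 7, 130, 15 and 388, where 1.18, 110, 7.87 and 307 were expected. At least 3 different genes were held by 0, 7, 1 and 17 barcodes, where 0.00164, 1.45, 0.0275 and 7.17 were expected. Counted once per barcode, the ratio to the number expected in young I/R was 1.18 (0.987 to 1.40) at 2 genes, an interval that includes 1, and 4.83 (1.94 to 9.95) at 3, and in aged I/R 1.26 (1.14 to 1.39) and 2.37 (1.38 to 3.80).

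A handful of barcodes held several UMIs. At least 5 UMIs of the 10 genes lay in 1 barcode of young sham, 2 of young I/R, 0 of aged sham and 3 of aged I/R, where even the largest expected number, in aged I/R, was 0.00974. The barcode with the most, in aged I/R, held 15 among its 1266 UMIs: 9 of S100a9, 3 of S100a8 and 1 each of Cxcr2, Mmp9 and Il1r2. In young I/R the highest held 10 among 546 UMIs, 3 each of S100a9 and Cxcr2, 2 of S100a8 and 1 each of Retnlg and Clec4d; its barcode sequence also occurred in another library. These barcodes carried 0.333% of the UMIs of the 10 genes in young I/R and 0.328% in aged I/R, and without the barcodes of at least 4 such UMIs the pair ratio was 1.19 (1.0 to 1.41) in young I/R and 1.27 (1.15 to 1.40) in aged I/R.

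Genes outside the 10 were read in the barcodes with at least 2 of them, against other barcodes of the same depth. Over the 4 libraries the granule and other neutrophil lists together had 73 UMIs there against 53.9 expected, a fold of 1.35 (1.06 to 1.70). Secondary and tertiary granule genes had 52 of them against 40.9 (1.27, 0.949 to 1.67), an interval that includes 1. Other neutrophil genes had 21 against 12.8 (1.64, 1.02 to 2.51), and primary granule genes 0. Which genes of the lists these UMIs came from is not given here. Macrophage markers were at 1.18 (1.04 to 1.35), adhesion genes at 1.39 (1.14 to 1.67), fibroblast markers at 0.994 (0.908 to 1.09) and cardiomyocyte markers at 0.959 (0.95 to 0.969). In young I/R alone the neutrophil lists were at 1.03 (0.495 to 1.90), and in aged I/R at 1.35 (1.03 to 1.74), where 59 of the 73 UMIs lay. Ligands and partners were at 2.07 (1.34 to 3.06) in young I/R and 1.13 (0.864 to 1.45) in aged I/R. Macrophage markers were at 0.867 (0.474 to 1.45) and 1.21 (1.05 to 1.38), and adhesion genes at 1.18 (0.587 to 2.10) and 1.40 (1.14 to 1.70), in the same order. Barcodes with any of the 10 genes held a macrophage marker 1.48 times (1.17 to 1.85) as often as chance in young sham, and 1.04 (0.954 to 1.13), 0.990 (0.877 to 1.11) and 1.07 (1.03 to 1.11) times in the other libraries in their order. For S100a8 alone, which the study used among its macrophage markers, the values were 0.399 (0.109 to 1.02), 1.12 (0.955 to 1.32), 1.07 (0.827 to 1.36) and 1.08 (0.996 to 1.17). In young sham Csf3r was beside a macrophage marker in 30 barcodes against 14.4 expected (2.08, 1.40 to 2.97). Hdc was in 15 there against 7.97 (1.88, 1.05 to 3.10). For macrophage markers the intervals of the other genes in young sham included 1. Beside a mast cell marker Hdc was in 2 young sham barcodes against 0.174 expected (11.5, 1.39 to 41.5). Any of the 10 genes was beside one in 3 against 1.15 (2.61, 0.539 to 7.63). Beside an erythroid gene any of the 10 was in 178 against 147 (1.21, 1.04 to 1.40), and beside a monocyte marker in 16 against 12.6 (1.27, 0.726 to 2.06). For these lists the other libraries are not given here.

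The 10 genes most like the set by this measure, among 1814 genes with at least 30 UMIs in those barcodes of which 561 were above 1 in both I/R libraries, were Dpm1 at 1.82-fold (1.30 to 2.48), Sun2, Synj2, Tex261, Cpsf7, Epha4, Pttg1ip, Gars, Lilr4b and Grina at 1.55-fold (1.17 to 2.02). Lilr4b, an inhibitory receptor of myeloid cells, at 1.56 (1.07 to 2.20), was the 1 leukocyte receptor among them. They were taken from the top of a ranking, so their folds are a description.

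Promoters are shown for 3 of the genes that were higher after I/R, to set their upstream sequence beside that shared direction. RefSeq windows (GRCm38.p6) matched 9 of the 10 genes, Mmp9 aside, and the 250 bases before the start were searched on both strands for TTGCNNAA, a core that C/EBP factors of granulocytes bind, for GAGGAA, the core bound by PU.1, and for TATAAA, the TATA box. TTGCNNAA was in 2 of the 9 windows (S100a9 and Retnlg) and in 9.56% of all 32851 promoters, GAGGAA in 4 of 9 (S100a8, Csf3r, Cxcr2 and Clec4d) and in 23.3%, and TATAAA in 2 of 9 (S100a8 and Slfn4) and in 12.4%. No matches overlapped each other, and a match is a run of letters, not a measured binding site. The windows printed contain no exon annotated in GENCODE M21, lie at chr3:90695722-90695971 (minus strand), chr16:48872358-48872607 (plus strand) and chr6:123261857-123262106 (plus strand), run 5′ to 3′ and have the match in capitals.
S100a9: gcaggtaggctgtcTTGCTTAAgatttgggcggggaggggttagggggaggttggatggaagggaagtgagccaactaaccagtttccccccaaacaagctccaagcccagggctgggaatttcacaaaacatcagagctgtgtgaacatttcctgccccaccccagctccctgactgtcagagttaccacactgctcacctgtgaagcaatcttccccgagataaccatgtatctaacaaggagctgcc
Retnlg: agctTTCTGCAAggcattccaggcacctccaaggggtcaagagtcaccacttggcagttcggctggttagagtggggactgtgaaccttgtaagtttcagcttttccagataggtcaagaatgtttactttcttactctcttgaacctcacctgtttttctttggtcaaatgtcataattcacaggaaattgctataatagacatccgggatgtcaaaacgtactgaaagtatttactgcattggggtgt
Clec4d: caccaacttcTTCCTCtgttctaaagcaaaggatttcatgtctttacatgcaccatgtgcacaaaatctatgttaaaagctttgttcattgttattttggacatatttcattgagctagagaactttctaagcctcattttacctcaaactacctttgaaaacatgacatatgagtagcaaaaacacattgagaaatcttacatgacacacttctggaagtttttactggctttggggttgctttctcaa
Counted from the start, with -1 the base before it, the capitals stand at -236 to -229 in S100a9, -246 to -239 in Retnlg, where the match is on the opposite strand, and -240 to -235 in Clec4d, where GAGGAA is also on the opposite strand.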

How the data were processed

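RNA of left ventricle was measured in 4 libraries on the 10× Chromium system with the 3′ kit. Per the submitters' processing notes the reads were processed with Cell Ranger 6.0.2 against mm10, and the deposited matrices, as the authors made them, hold whole UMI counts per gene and barcode with no scaling. Groups were taken from the labels. The members and gene lists were chosen with earlier results of these data known.

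Calculations ran in Python 3.11.15 (pandas 2.3.3, numpy 2.4.6, matplotlib 3.10.9, scipy 1.17.1). UMIs were summed over all deposited barcodes, with no cell filter, clustering or doublet removal, so no cell type was assigned. Depth was 25836175 and 39673199 UMIs in sham and I/R of young and 41356670 and 66767829 in sham and I/R of aged hearts. Sums have exact Poisson, shares exact binomial (Clopper-Pearson) and ratios exact conditional binomial 95% intervals; differences of log2 ratios have intervals from the 4 sums on the log scale. All cover counting error only. Background shares were counted over all genes with at least 20 UMIs in 2 libraries. Thinned shares were computed by the hypergeometric formula. The named genes are the 10 members, up to 4 genes per list with the most UMIs, and the 10 genes with the highest depth-matched fold beside the members. BC100530 of the neutrophil list was not found by symbol. Intervals and pair ratios were tested on simulated data with known answers. Alternatives were other scaling, totals, barcode filters, fold limits, depths and bins. The study's clusters and comparisons were not used.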

Additional observations from a re-analysis of the deposited data

Results flagged for a closer look

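S100a8 and Cxcr2 were flagged because their difference between the ages, by total UMIs, had one sign in sham and the opposite sign after I/R. Each had a counting interval that leaves out 0, among the genes that entered these comparisons. Il1r2, which did not enter in sham with 14 and 2 UMIs, was at 2.13 (0.006 to 5.31) there. After I/R it was at -0.89 (-1.12 to -0.66). The log2 ratio of aged over young for S100a8 was 0.94 (0.60 to 1.29) in sham and -0.37 (-0.47 to -0.27) after I/R. For Cxcr2 it was -1.05 (-2.05 to -0.07) in sham, from 17 UMIs in aged and 22 in young sham, and 0.76 (0.49 to 1.03) after I/R, from 441 and 155 UMIs. By gene-wise median scaling the sham interval of Cxcr2, -0.91 (-1.91 to 0.07), includes 0, and that of S100a8, 1.08 (0.74 to 1.43), does not. By that scaling S100a9, Csf3r, Mmp9 and Slfn4 changed sign too, with intervals that leave out 0. Their values in sham and after I/R were 1.18 and -0.24, 0.54 and -0.40, 1.54 and -0.60, and 1.40 and -0.39. Each condition is 1 library, so the difference between sham and I/R was not tested.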

How the results depend on the processing

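The count of 9 genes at least 2-fold higher after I/R stayed at 9 or 10 at both ages under every alternative tried. Ratios moved beyond counting error mainly with the scaling. Gene-wise median scaling gave log2 ratios of the sum of 3.23 in young and 1.85 in aged hearts and -0.53 for aged over young I/R, medians of 3.51 for young I/R over sham and -0.68 for aged over young I/R, a response difference of -1.38, 0 genes at least 2-fold lower in aged than young sham and 1 after I/R, and it turned S100a9 to -0.24 for aged over young I/R. Totals without Gm42418, Malat1 and mitochondrial genes gave sums of 2.87, 1.85 and, for aged over young I/R, -0.22, with 0 genes lower under sham and 1 after I/R. Barcodes with at least 200 genes gave 2.89 in young hearts, 0.89 for aged over young sham with 5 genes higher there, and a response difference of -0.98. Barcodes found in 1 library only left 0 genes lower in aged sham. At a 1.5-fold limit 6 genes were higher in aged sham, and 1 was higher and 1 lower in aged I/R. For the other totals, the barcode filters and the 1.5-fold limit the share of all genes was not counted. The counts of genes under them thus have no background. Without barcodes of at least 2 members the sums were 1.82 in aged hearts and -0.13 for aged over young I/R. Pairs without S100a8 and S100a9 stood at 1.49 in aged I/R. Asking for 3 members in a barcode moved the ratio to chance to 0 (0 barcodes) in young sham and 4.83 after young I/R, with 36.4 (1 barcode) in aged sham and 2.37 after aged I/R, and the neutrophil lists there to 3.88-fold. Why these values moved was not tested. Of 156 such values 127 moved by less than counting error or, for counts, 1.5 times. Leaving out barcodes with at least 4 member UMIs was chosen after seeing the data.

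No fit of I/R against sham with age as a block was run; it would leave 1 residual degree of freedom. Depth in young sham limits several ratios: Il1r2 had 2 UMIs there, Clec4d 12, and Retnlg and Mmp9 14 each, and Cxcr2 had 17 in aged sham.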

Other observations

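Among the ligands, chosen after their values were seen, Cxcl3 had 0 UMIs in young sham and 131 after young I/R, with 2 in aged sham and 114 after aged I/R, and Cxcl2 had 16, 388, 32 and 532. Selp, which encodes P-selectin of activated endothelium and platelets, was at 0.581 CPM in young sham and 3.81 after young I/R, with 1.31 in aged sham and 4.49 after aged I/R. The 6 T cell markers summed to 0.968 and 0.958 CPM in young hearts, sham and I/R, and to 4.91 and 4.18 CPM in aged hearts. B cell markers were lower after I/R, with 20.6 and 2.67 CPM in young and 22.1 and 12.3 CPM in aged hearts.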
